A study of Mus musculus with 60 samples.

Results

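The interferon response and antigen presentation genes followed here are a set of 37 named mouse genes. They were chosen by name, though with earlier results of these data known, out of 19456 genes with a row in the cell table or the liver table. They comprise virus sensors (Ddx58, Ifih1, Dhx58, Zbp1), transcription factors (Irf1, Irf7, Irf9, Stat2), Isg15 and its protease Usp18, antiviral effectors, 3 guanylate-binding proteins and 6 genes of MHC class I antigen presentation. Each table held 35 of them, and Mx1 and Mx2 were not analysed here. All 35 reached 1 FPKM (fragments per kilobase of transcript, scaled to library depth) in at least 3 liver samples, and 32 did so in the cell samples. Oas2, Oasl2 and Ifi44 did not, with highest values of 0.410, 0.787 and 0.596 FPKM in any cell sample.

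The study asked how the cytokine IL6 turns adult mouse hepatocytes into proliferating, progenitor-like cells (IL6-iHPCs), how these cells mature again into hepatocyte-like cells (IL6-iMHs), and how this compares with a liver that regrows after 2/3 partial hepatectomy (PHX). The labels give WT and C57BL/6 for every group, and the methods give mice of 8 to 10 weeks. The study describes clones of this name from mice with Albumin-Cre and R26R-tdTomato alleles, and whether clone-1 here carries them is not given in the sources used here. The cell table held 33 samples in 11 groups of 3. These were Hepatocytes purified on a density gradient, IL6-iHPCs in their first culture at day 3 (IL6-iHPCs-D3 (P0)) and day 14 (IL6-iHPCs-D14 (P0)), and 4 passaged lines, each as IL6-iHPCs and as IL6-iMHs: clone-1 (P20), mouse-1 at both P10 and P35, and mouse-2 (P10), where P is the passage. All IL6-iHPCs grew in medium with IL6, EGF, HGF and dexamethasone. IL6-iMHs were, by their labels, the same lines after 7 days in a maturation medium. That medium held more dexamethasone and oncostatin M, and was without IL6, EGF and HGF. A line was 1 culture, and clone-1 came from a single hepatocyte. The liver table held 18 samples in 6 groups of 3, namely Normal liver and liver at 6 h, 24 h, 3 days, 7 days and 14 days after PHX. The legends of the study call the 3 cell samples of a group technical repeats, and no source says whether the liver numbers stand for separate mice. The p-values and SEs below thus measure only the spread between these samples, and not the spread between lines.

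Interferons are secreted proteins that bind receptors on nearby cells. Type I interferons act through a complex with Stat2 and Irf9 that binds the interferon-stimulated response element (ISRE), and type II interferon acts through the gamma-activated sequence (GAS). The genes they switch on sense viral RNA, block viral replication, or cut proteins into peptides and carry them to the cell surface on MHC class I molecules, where T cells inspect them. Hepatocytes display class I molecules, and interferon raises that display.

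Starts of the member genes were read from RefSeq (GRCm38.p6) to show which share the response element. Windows from 250 bases before to 50 bases after the start were matched for 29 of the 37 members. The ISRE core, taken as GAAA, any 2 bases and GAAA, and searched on both strands with overlaps allowed, was found in windows of 14 of these 29 members (48.3%), against 1079 of 27025 genes (3.99%). The GAS letters, TTCNNNGAA, were found in 7 of the 29 (24.1%), against 2582 of all genes (9.55%). The 160 bases before the start are shown for 7 members on which the results below turn, 5′ to 3′ on the strand of the gene, with matches to the ISRE core in capitals (TTTC, any 2 bases and TTTC where it lies on the other strand).
Isg15 (chr4:156200819-156200978, minus strand): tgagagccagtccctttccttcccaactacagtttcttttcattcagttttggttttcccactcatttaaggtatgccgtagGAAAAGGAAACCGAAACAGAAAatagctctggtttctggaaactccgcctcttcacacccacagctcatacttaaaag
Bst2 (chr8:71537473-71537632, minus strand): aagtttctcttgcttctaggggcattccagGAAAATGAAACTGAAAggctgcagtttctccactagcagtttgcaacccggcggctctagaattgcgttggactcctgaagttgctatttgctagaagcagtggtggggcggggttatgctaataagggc
Ifit1 (chr19:34640729-34640888, plus strand): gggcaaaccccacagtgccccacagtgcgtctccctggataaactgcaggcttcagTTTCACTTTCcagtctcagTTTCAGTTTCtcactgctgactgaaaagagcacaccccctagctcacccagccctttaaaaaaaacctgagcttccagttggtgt
Ifit3 (chr19:34583369-34583528, plus strand): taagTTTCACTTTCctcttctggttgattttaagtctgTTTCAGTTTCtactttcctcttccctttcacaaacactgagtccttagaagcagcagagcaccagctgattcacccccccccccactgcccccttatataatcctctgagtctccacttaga
Gbp2 (chr3:142620503-142620662, plus strand): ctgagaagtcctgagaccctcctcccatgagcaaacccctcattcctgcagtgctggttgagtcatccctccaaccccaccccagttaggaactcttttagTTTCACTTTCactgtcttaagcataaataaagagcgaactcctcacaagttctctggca
Gbp3 (chr3:142559884-142560043, plus strand): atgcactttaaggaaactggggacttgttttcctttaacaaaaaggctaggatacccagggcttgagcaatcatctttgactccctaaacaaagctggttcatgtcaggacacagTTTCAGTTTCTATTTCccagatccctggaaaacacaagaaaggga
B2m (chr2:122147527-122147686, plus strand): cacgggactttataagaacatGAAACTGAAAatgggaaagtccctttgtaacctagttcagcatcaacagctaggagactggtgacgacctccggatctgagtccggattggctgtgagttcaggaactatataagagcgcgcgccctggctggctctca
The capitals show where the matches lie. In Isg15 the first bases of 3 overlapping matches lie 78, 72 and 66 bases before the start, and in Bst2 2 overlapping matches begin 130 and 124 bases before it. In Ifit1 and Ifit3, which lie close together on chromosome 19, the matches stand apart, at 104 and 85 bases and at 156 and 122 bases before the start. Gbp2 has 1 match at 59 bases, Gbp3 2 overlapping ones at 45 and 39, and B2m 1 at 139. The starts used for Ifit3 and Gbp3 lie past the first base of the spans listed for these genes (chr19:34583119-34588982 and chr3:142560016-142573213). For Gbp3 2 windows were matched, and 1 of them held the core. A match is a run of letters, and no window was tested for binding.

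Some libraries went against their labels or stood apart, so the main results that rest on them are given with and without them. The summed level of 4 Y-linked genes was 33.9 to 38.7 FPKM in the IL6-iHPCs labelled clone-1 and 0 in the IL6-iMHs labelled clone-1, so these libraries did not match. It was 5.46 to 7.21 FPKM in Hepatocytes, 70.5 to 81.4 FPKM in IL6-iHPCs-D3, 53.4 to 62.3 FPKM in IL6-iHPCs-D14 and at most 0.0157 FPKM in every mouse-1 and mouse-2 library. Most lines thus differed from Hepatocytes in Y-linked RNA, and the part of donor sex in the results was not tested. PHX-D3 replicate 2 correlated less with its group than the other samples of that group did with each other, with r of 0.902 and 0.882 against 0.985. PHX-24h replicate 1 (0.974 and 0.976 against 0.989) and PHX-6h replicate 3 (0.977 and 0.983 against 0.989) did so less, and pairs of cell samples had r of at least 0.990. Depth, recovered from the steps in the values, was 45.5 to 84.1 M counted units per cell sample and 35.8 to 53.9 M per liver sample. Hepatocyte markers (5 of 6 listed genes had rows) summed to 71032 to 76663 FPKM in Hepatocytes, 589.65 to 708 FPKM in IL6-iHPCs-D3 and 59264 to 80454 FPKM in IL6-iMHs. Hepatocytes also held RNA of other cells, with each of 12 leukocyte markers above 0 in at least 1 sample (summed 9.19 to 9.51 FPKM), all 11 Kupffer cell and macrophage markers (21.4 to 25.4 FPKM) and red blood cell markers (107 to 124 FPKM). In cultured cells the leukocyte sum was at most 0.240 FPKM, with 6 to 12 of the 12 markers at 0 in every sample of a group, and the red blood cell sum was at most 1.03 FPKM. The Kupffer cell and macrophage sum was 0.957 to 40.7 FPKM in cultured cells, with 2 to 9 of the 11 markers at 0 in every sample of a group. In IL6-iHPCs-D3 it was 21.2 to 26.9 FPKM, of which Cd68 gave 26.5, 20.7 and 25.4 FPKM against 0.768, 0.548 and 0.697 FPKM in Hepatocytes. The part of other cells in the results in culture was not tested.

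The first comparison asks what the interferon genes did as hepatocytes entered culture with IL6. The transcription factor Irf7, the antiviral tether Bst2 and 5 of the 6 class I genes fell, while Stat2, Parp14, Ifit2 and 2 guanylate-binding proteins rose. Of the 32 members tested in IL6-iHPCs-D3, 15 were lower and 6 higher at an adjusted p under 0.05 (limma, Benjamini-Hochberg over 12328 genes) and at least 2-fold. In all genes tested, 12.1% were lower and 53.9% higher. The median log2 change was -0.91 for the members and 1.14 for all genes. Hepatocytes spend much of their RNA on a few secreted proteins, and median ratio scaling, which sets the median gene near 0, moved the median of all genes to 0.06 and gave 3 members higher and 23 lower. The 23 held all 15 and added Irf9, Usp18, Ifit1, Rsad2, Cmpk2, Xaf1, Gbp3 and Tap1. Below, both scalings means median ratio scaling and quantile normalization, with values in that order. Groups did not overlap for 29 members, 21 with all IL6-iHPCs-D3 samples below Hepatocytes and 8 with all above (all genes 19.5% and 72.6%).

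Irf7 (chr7:141263183-141266499), the factor that amplifies type I interferon production, was at 97.3, 90.7 and 87.2 FPKM in Hepatocytes. It was at 2.83, 2.25 and 3.03 FPKM in IL6-iHPCs-D3 and at 2.52, 3.08 and 2.64 FPKM in IL6-iHPCs-D14. Every cultured sample lay far below every hepatocyte sample. The log2 change was -4.65 ± 0.08 (SE, n = 3 against 3, adjusted p = 1.67e-28, limma) at day 3 and -4.63 ± 0.08 at day 14. Irf9, the DNA-binding partner of Stat2, was at 24.1, 25.4 and 26.3 FPKM in Hepatocytes and at 17.998, 16.4 and 17.7 FPKM at day 3, a log2 change of -0.52 that did not reach 2-fold. Both scalings called Irf9 lower (-2.08 and -1.29).

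Stat2 (chr10:128270498-128292853), which joins Irf9 in the ISRE-binding complex, moved the other way. It was at 10.5, 11.6 and 8.98 FPKM in Hepatocytes and at 50.6, 45.2 and 53.3 FPKM in IL6-iHPCs-D3, without overlap. The log2 change was 2.16 ± 0.09 (adjusted p = 2.96e-20, limma) at day 3 and 1.26 ± 0.09 at day 14. Under median ratio scaling it was 0.62 at day 3, under 2-fold, and -0.10 at day 14, so the direction at day 14 depends on the scaling. Irf1, a factor of the type II response, was at 8.995, 10.2 and 10.3 FPKM in Hepatocytes and at 17.8, 19.2 and 18.2 FPKM at day 3, which was a log2 change of 0.85 and not a call, and which turned to -0.68 and -0.23 under both scalings.

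**Figure D1:**
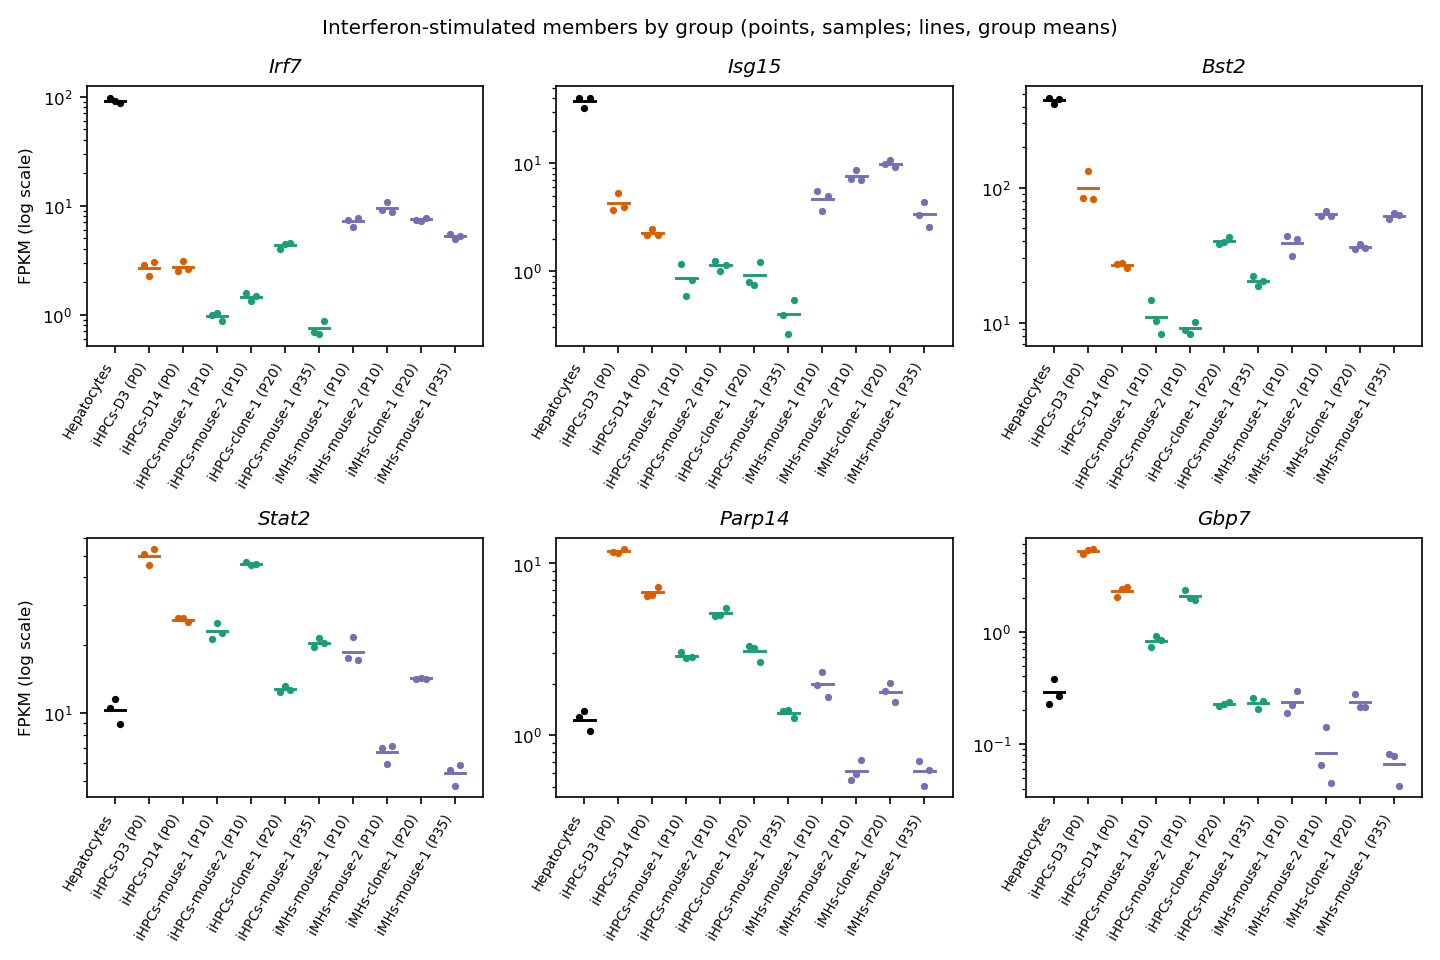
FPKM on a log axis for 6 members in the 11 cell groups, with a point for each of the 3 samples and a line at the group mean (black, Hepatocytes; orange, first culture; green, passaged IL6-iHPCs; purple, IL6-iMHs). Irf7, Isg15 and Bst2 are higher in all 3 Hepatocytes samples than in any cultured sample, while Stat2, Parp14 and Gbp7 are highest in IL6-iHPCs-D3 or, for single Stat2 samples, close to it in IL6-iHPCs-mouse-2 (P10); Stat2 at day 14 turns to -0.10 (log2) under median ratio scaling.

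Isg15 (chr4:156199424-156200818) encodes a ubiquitin-like protein that is attached to other proteins, and Usp18 removes it and damps the type I receptor. Isg15 was at 40.3, 32.2 and 40.4 FPKM in Hepatocytes and at 3.69, 5.29 and 3.89 FPKM in IL6-iHPCs-D3. The groups were apart, with a log2 change of -2.87 ± 0.14 (adjusted p = 6.26e-18, limma). Usp18 was at 20.2, 19.0 and 18.2 FPKM in Hepatocytes, at 11.8, 14.5 and 11.8 FPKM at day 3 and at 3.92, 4.62 and 5.17 FPKM at day 14. The log2 change was -0.56 at day 3, under 2-fold, and -1.86 at day 14, though both scalings also called it lower at day 3 (-2.10 and -1.50), and the step from day 3 to day 14 was itself called (-1.30 ± 0.09, adjusted p = 2.17e-13, limma).

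Among the antiviral effectors, 6 of the 13 tested fell and 2 rose at day 3 (all genes 12.1% and 53.9%). Bst2 (chr8:71534255-71537472), which holds budding virus at the membrane, was the most abundant effector. It was at 465, 421 and 459.7 FPKM in Hepatocytes, at 84.3, 132 and 82.0 FPKM in IL6-iHPCs-D3 and at 27.2, 27.5 and 25.6 FPKM in IL6-iHPCs-D14. The 3 groups did not overlap, and the log2 change from Hepatocytes was -2.19 ± 0.15 at day 3 and -4.02 ± 0.15 at day 14. Rtp4, a chaperone of membrane receptors, was at 17.6, 17.1 and 18.3 FPKM in Hepatocytes and at 3.60, 3.38 and 3.76 FPKM at day 3, without overlap. Rtp4 and Ifit3, of the family that binds foreign RNA ends, fell by 2.03 and 1.83 on the log2 scale at day 3. Oasl1, an OAS-like protein, fell by 1.39 and Ifi35 by 1.07. Ifit3 reads may be shared with its near-identical copy Ifit3b and Oas1a reads with Oas1g, so their values are uncertain.

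Ifit2 and Parp14 rose. Ifit2 (chr19:34550550-34576534), an RNA-binding relative of Ifit1, was at 0.166, 0.145 and 0.142 FPKM in Hepatocytes and at 5.40, 5.90 and 5.81 FPKM in IL6-iHPCs-D3. Every day 3 sample stood above every hepatocyte sample, with a log2 change of 2.54 ± 0.09 (adjusted p = 4.12e-22, limma). Ifit1, from the same stretch of chromosome 19, was at 3.73, 4.001 and 3.44 FPKM and then at 1.42, 1.28 and 1.39 FPKM, a log2 change of -0.998 that did not quite reach 2-fold but did under both scalings (-2.18 and -2.44). Parp14 (chr16:35831892-35871518), an ADP-ribosyltransferase, went from 1.27, 1.38 and 1.05 FPKM to 11.7, 11.5 and 12.1 FPKM, again without overlap. Its log2 change was 2.51 ± 0.08 and stayed a rise of at least 2-fold under median ratio scaling but came to 0.99 under quantile normalization.

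The guanylate-binding proteins, GTPases that attack the membranes around intracellular microbes, split. Gbp2 (chr3:142620663-142638008) was at 0.420, 0.499 and 0.751 FPKM in Hepatocytes and at 4.24, 4.37 and 3.32 FPKM in IL6-iHPCs-D3. Gbp7 (chr3:142530336-142550151) was at 0.226, 0.382 and 0.269 FPKM and then at 4.96, 5.28 and 5.41 FPKM. Both rose (log2 1.68 ± 0.09 and 2.27 ± 0.06), without overlap, though Gbp2 came to 0.77 under median ratio scaling and to 0.18 under quantile normalization, and at day 14 turned to -0.05 under the latter. Gbp7 came to 0.92 at day 3 and to 0.15 at day 14 under quantile normalization, neither of them called. Gbp3 had the opposite order, at 1.41, 1.65 and 1.56 FPKM in Hepatocytes and at 0.351, 0.474 and 0.519 FPKM at day 3, a log2 change of -0.81, under 2-fold. It was called lower at a pseudocount of 0.1 (-1.59), by voom (-1.79) and under both scalings (-1.69 and -2.12). Reads of this family can be split between its similar copies.

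Of the virus sensors, Zbp1 and Dhx58 fell and Ifih1 rose. Zbp1, which binds Z-form nucleic acid and can start cell death, was at 15.9, 14.6 and 15.8 FPKM in Hepatocytes and at 2.56, 2.29 and 2.70 FPKM at day 3. Dhx58, a regulator of the RNA sensors, was at 12.1, 12.3 and 14.1 FPKM and then at 3.42, 4.15 and 3.00 FPKM. Ifih1, the sensor of long double-stranded RNA, was at 2.503, 2.84 and 2.21 FPKM and then at 8.96, 8.80 and 7.83 FPKM. None of the 3 sensors overlapped between the groups. The log2 changes were -2.23 ± 0.06, -1.62 ± 0.08 and 1.44 ± 0.07, the last of which came to 0.11 under median ratio scaling and -0.09 under quantile normalization. Ddx58, the sensor of RNA with triphosphate ends, changed by 0.75, under 2-fold, and turned to -0.67 under both scalings.

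The class I genes made up most of the members' RNA, since B2m, H2-K1 and H2-D1 held 83.3% to 84.9% of the members' summed FPKM in Hepatocytes. B2m (chr2:122147687-122153082), the light chain of every class I molecule, was at 2420.0, 2744 and 2607 FPKM in Hepatocytes and at 1084, 1061 and 1038.5 FPKM in IL6-iHPCs-D3. H2-K1 (chr17:33996012-34000619), a heavy chain, was at 1412, 1299.9 and 1331 FPKM and then at 255, 286 and 257 FPKM. Neither gene overlapped between the groups. The log2 changes were -1.29 ± 0.09 for B2m and -2.34 ± 0.06 for H2-K1, but B2m came to 0.35 under quantile normalization. H2-D1 (chr17:35263094-35267497), the second heavy chain, was at 643, 571 and 607 FPKM and then at 250.1, 289 and 244 FPKM, a log2 change of -1.22 that came to -0.26 under quantile normalization. Reads of H2-K1 and H2-D1 may be shared between these and the H2-Q copies.

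Psmb8 and Psmb9 are the immunoproteasome subunits that replace constitutive ones, and Tap1 carries peptides into the endoplasmic reticulum. Psmb9 (chr17:34182030-34187330) was at 31.2, 26.0 and 30.3 FPKM in Hepatocytes and at 4.41, 5.58 and 3.52 FPKM at day 3. Psmb8 (chr17:34198195-34201454) was at 50.2, 40.6 and 47.1 FPKM and then at 18.3, 26.5 and 18.2 FPKM. Both fell without overlap, by 2.47 ± 0.13 and 1.11 ± 0.12 on the log2 scale. Tap1 (chr17:34187556-34197225), which lies between them and starts beside Psmb9 on the opposite strand, was at 14.6, 13.0 and 12.2 FPKM and then at 14.7, 15.9 and 14.5 FPKM. Its groups overlapped at day 3 (log2 0.17, adjusted p = 0.0899, limma) and separated at day 14, at 6.73, 7.16 and 7.35 FPKM (log2 -0.82, under 2-fold). Its direction at day 3 depended on the scaling, since median ratio scaling turned it to -1.36 and called it lower and quantile normalization gave -0.87, and at day 14 both called it lower (-2.15 and -1.79). Of the 3 constitutive counterparts, Psmb6 and Psmb7 also fell at day 3, by 1.14 and 1.10.

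**Figure D2:**
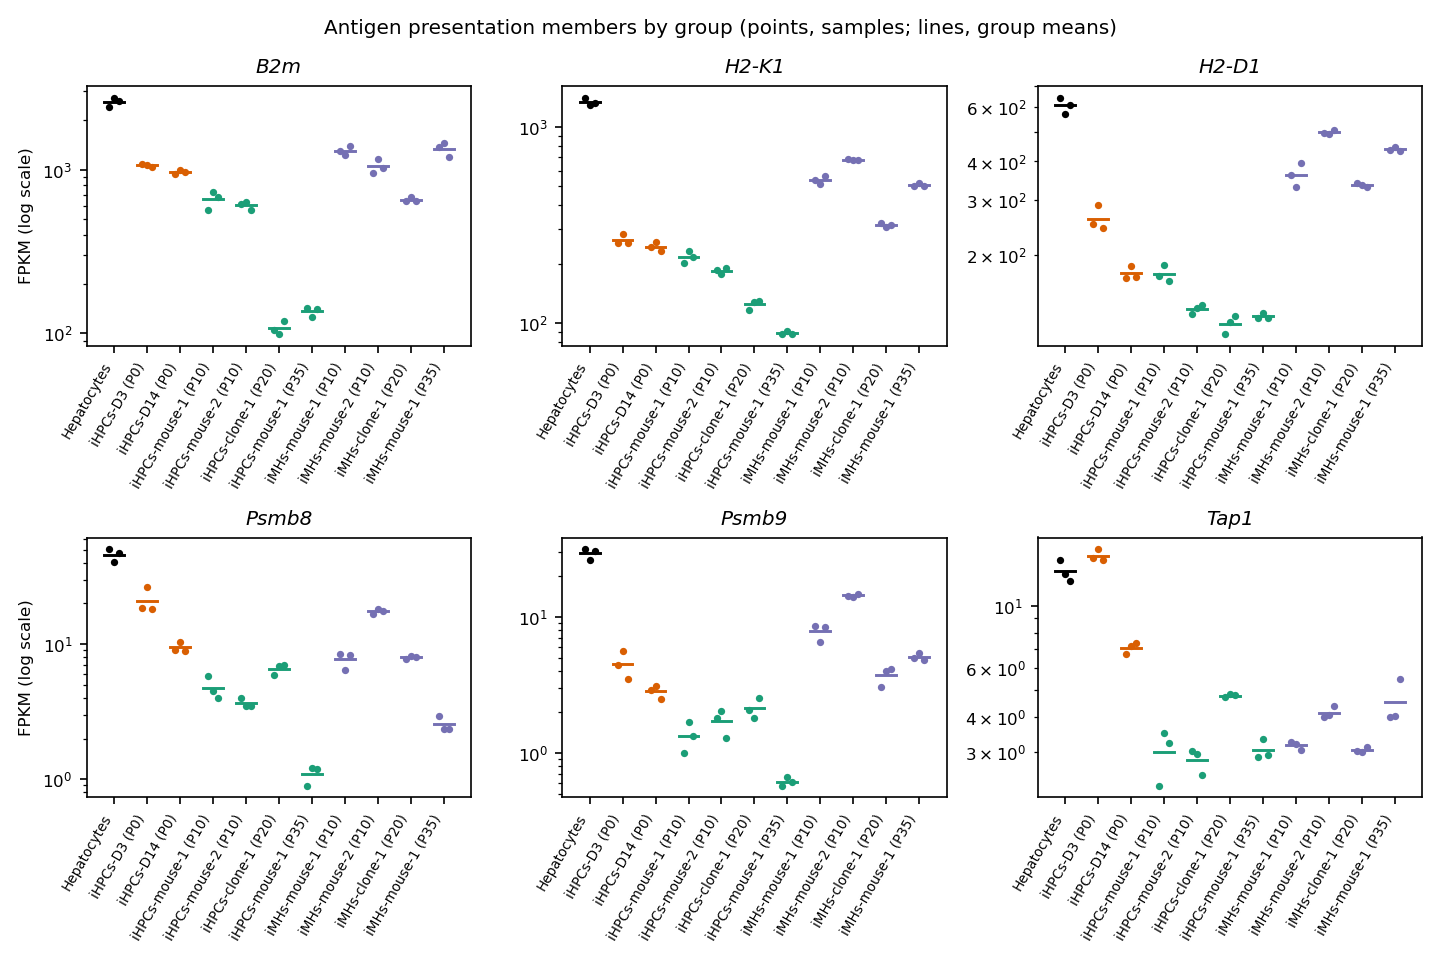
FPKM on a log axis for 6 antigen presentation members in the 11 cell groups, with a point for each of the 3 samples and a line at the group mean, coloured as black for Hepatocytes, orange for first culture, green for passaged IL6-iHPCs and purple for IL6-iMHs. B2m lies lowest in IL6-iHPCs of clone-1 (99.0 to 119.5 FPKM) and mouse-1 (P35), and all 6 genes but Tap1 are lower in IL6-iHPCs-D3 than in Hepatocytes, which for B2m turns to 0.35 (log2) under quantile normalization, while Tap1 (0.17) turns to -1.36 under median ratio scaling.

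By day 14, 19 members were lower and 5 higher than in Hepatocytes (all genes 12.9% and 50%), with a median log2 change of -1.36 against 1.00 for all genes. Under median ratio scaling 1 was higher, and under quantile normalization 0. The comparison shares its Hepatocytes with the one at day 3. Set directly against day 3, day 14 had 4 members lower, namely Usp18, Cmpk2, Bst2 and Psmb8, and 0 higher (all genes 5.05% and 5.12%). At an unadjusted p under 0.05 (limma) 26 were lower and 1 higher, and voom on the recovered reads called 10 lower and 1 higher. Counts of this direct comparison depended on the settings, with 10 members lower at a pseudocount of 0.1, while 25 were lower and 1 higher (Oas3, log2 0.21) at an adjusted p under 0.05 with no fold limit. Cmpk2 lost its call under both scalings (-0.76 and -0.81) and Psmb8 under median ratio scaling (-0.86), which left 2 lower. Irf7 changed by 0.02 ± 0.08 between the days (adjusted p = 0.844, limma). Markers of other cells moved over the same days. The endothelial sum went from 7.15 to 8.56 FPKM at day 3 to 0.462 to 0.752 FPKM at day 14, with 3 of 5 tested markers lower and none of 7 at 0 throughout. The stellate cell sum went from 0.640 to 1.08 FPKM to 24.9 to 26.0 FPKM, and Cd68 fell by 2.72. Their part in the result was not tested.

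The passaged lines ask whether the first changes lasted. The mean of the 4 lines counts mouse-1 at P10 and at P35 as separate lines, so it covers 3 origins, and 2 without clone-1. In this mean, 23 members were lower than in Hepatocytes and 2 higher, Stat2 and Ifit2 (all genes 11.3% and 48.1%). Their median log2 change was -1.96 against 0.94 for all genes. Without the clone-1 libraries, an alternative chosen after seeing the data, 23 were lower and 3 higher (all genes 12% and 46.5%), the third being Gbp2. Both scalings of composition took the count of higher members to 0, and Stat2 turned from 1.09 to -0.17 under median ratio scaling. Of the 13 tested effectors 10 fell, and all 6 class I members fell.

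Irf7 ranged from 0.662 to 4.57 FPKM over the 12 passaged samples, with a median of 1.18, and the log2 change was -5.16 ± 0.07. Isg15 ranged from 0.260 to 1.25 FPKM with a median of 0.812. Bst2 ranged from 8.22 to 42.8 FPKM with a median of 16.8. All passaged samples of these 3 genes lay below all hepatocyte samples, and Isg15 and Bst2 fell by 4.42 ± 0.11 and 4.64 ± 0.12. Zbp1 was at most 0.0958 FPKM and at 0 in some samples (log2 -3.99 ± 0.05).

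The class I genes differed between lines. B2m was at 565, 728 and 682 FPKM in mouse-1 (P10) and at 614, 633 and 569.5 FPKM in mouse-2 (P10). It was at 106, 99.0 and 119.5 FPKM in clone-1 (P20) and at 143, 126 and 141 FPKM in mouse-1 (P35). The P10 lines did not overlap with the other two. Within mouse-1, the P10 samples lay above all P35 samples, each passage being 1 culture. H2-D1 was more even, between 111 and 185 FPKM over the 12 samples. Nlrc5, which drives class I transcription and is no member, was at 11.4, 13.4 and 13.4 FPKM in mouse-1 (P10) and at 8.10, 7.89 and 8.15 FPKM in mouse-2 (P10). It was at 0.342, 0.309 and 0.276 FPKM in clone-1 (P20) and at 1.52, 1.47 and 1.25 FPKM in mouse-1 (P35). At day 3 it did not follow B2m, being 2.48 higher than in Hepatocytes on the log2 scale. Nor did it on maturation in the mean of the lines (-1.002, and -1.68 without clone-1). Within the clone-1 libraries both genes rose on maturation (Nlrc5 1.02, B2m 2.59), though their Y-linked RNA did not match. Each of the other lines had Nlrc5 lower and B2m higher. There Nlrc5 changed by -0.47 for mouse-1 at P35, -2.62 for mouse-1 at P10 and -1.94 for mouse-2.

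**Figure D3:**
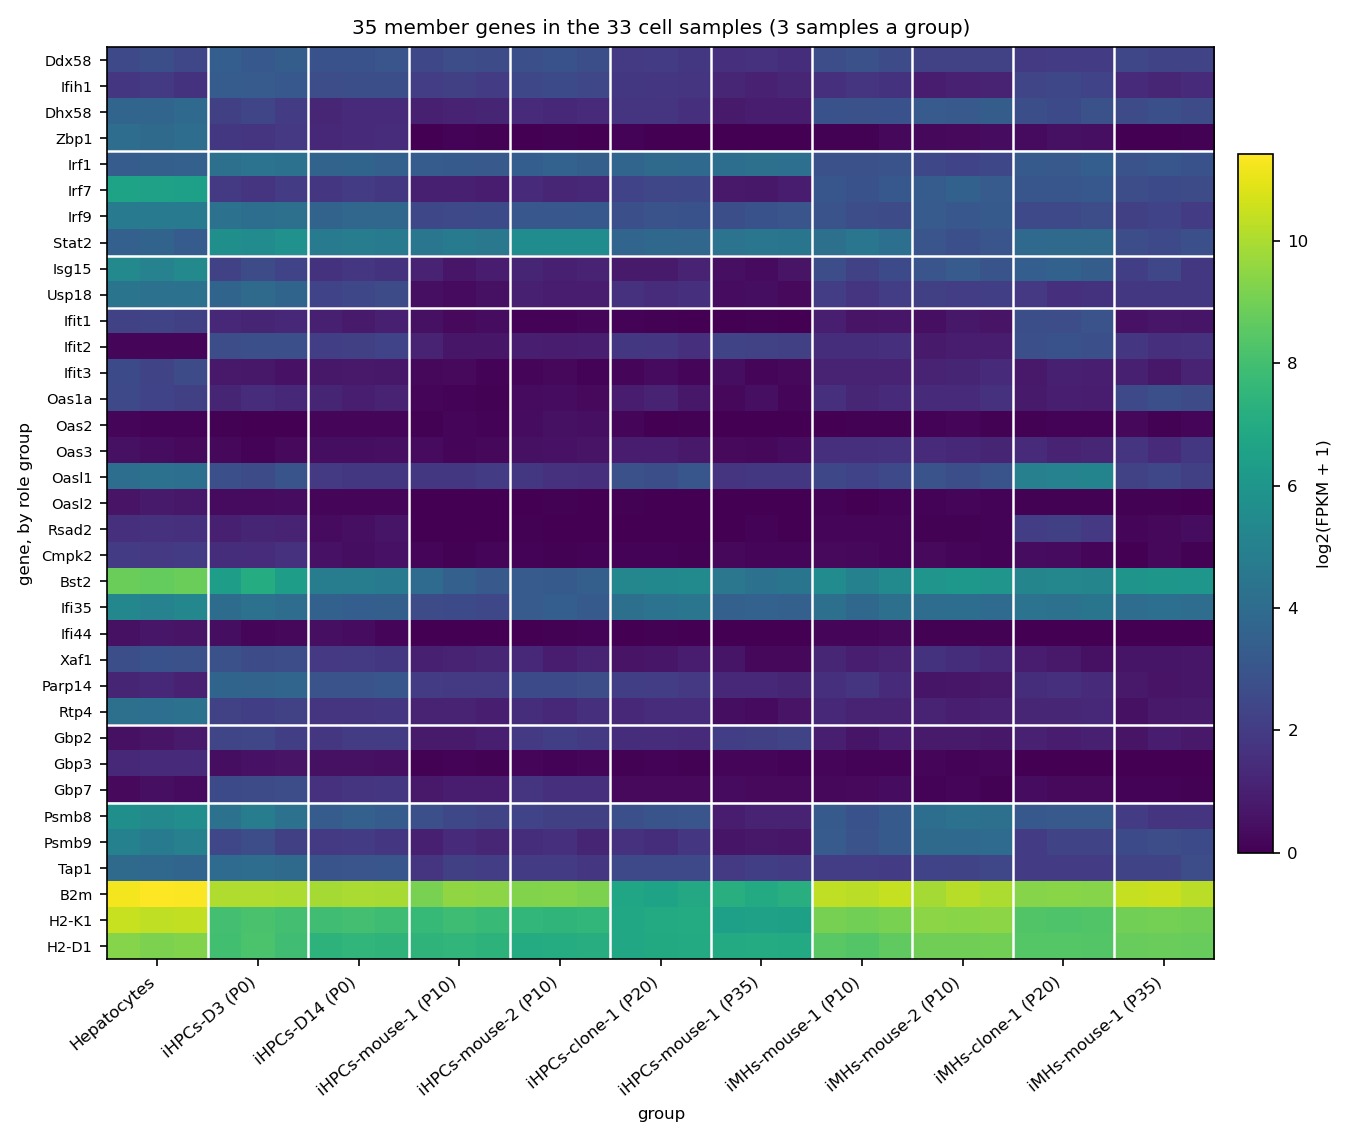
Heat map of log2(FPKM + 1), in colour, for the 35 members (vertical axis, in 6 role groups parted by white lines) in the 33 cell samples (horizontal axis, 3 per group). B2m, H2-K1 and H2-D1 are the brightest bands, Irf7 is brightest in Hepatocytes (87.2 to 97.3 FPKM), and Oasl1 is brightest in the IL6-iMHs labelled clone-1 (30.6 to 35.1 FPKM).

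Maturation asks whether the genes came back as the cells regained hepatocyte RNA. In the mean of the 4 lines, 12 members were higher in IL6-iMHs than in the passaged IL6-iHPCs, and 1, Stat2, was lower (all genes 6.68% and 21.4%). The Stat2 call (log2 -1.13) was lost under median ratio scaling (-0.63) and quantile normalization (-0.76). At an unadjusted p under 0.05 (limma) 23 members were higher and 8 lower. Voom called 17 higher and 5 lower, namely Stat2, Parp14, Gbp2, Gbp3 and Gbp7. The median log2 change was 0.67 for the members and -0.41 for all genes. The 12 were Dhx58, Irf7, Isg15, Usp18, Ifit1, Oas1a, Oasl1, Bst2, Psmb9, B2m, H2-K1 and H2-D1. Without clone-1, 12 were higher and 1 lower (all genes 8.76% and 24.5%), with Ifit1 (log2 0.48) and Oasl1 (0.73) no longer past 2-fold and Oas3 (1.12) and Psmb8 (1.12) past it. All IL6-iMH samples lay above all passaged IL6-iHPC samples for 8 members and below for 0 (all genes 4.03% and 18.1%). Without clone-1 these were 14 and 1 (all genes 8.87% and 30.2%).

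Markers of other cells also moved on maturation. Csf1r, a macrophage receptor, was 1.23 higher on the log2 scale in the mean of the lines, and was at 21.3, 17.8 and 20.6 FPKM in IL6-iMHs of mouse-1 (P35) against 0.150, 0.177 and 0.0404 FPKM in its IL6-iHPCs. The lines went both ways. Csf1r changed by 4.22 in that line, 1.87 for mouse-1 at P10, 0.09 for clone-1 and -1.28 for mouse-2, where it was called lower. In the mean, Csf1r was the 1 of 7 tested Kupffer cell and macrophage markers called. The stellate cell marker Dcn fell by 2.48. Their part in the result was not tested.

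Of the 6 class I members 4 rose, namely Psmb9, B2m, H2-K1 and H2-D1, and 0 fell by limma (all genes 6.68% and 21.4%). H2-K1 ranged from 87.4 to 231 FPKM over the 12 IL6-iHPC samples, with a median of 154, and from 310 to 686 FPKM over the 12 IL6-iMH samples, with a median of 515. H2-D1 ranged from 111 to 185 FPKM and from 330 to 505 FPKM, with medians of 129 and 414. Neither overlapped, and the log2 changes were 1.76 ± 0.03 and 1.56 ± 0.03 (adjusted p = 7.7e-29 and 2.69e-26, limma). Without clone-1 the changes were 1.90 and 1.58, with IL6-iMH medians of 539 and 436 FPKM. B2m rose by 1.91 ± 0.05 in the mean, from 0.78 in mouse-2 (P10) to 3.28 in mouse-1 (P35), and its ranges overlapped between the classes. Without clone-1 the rise was 1.68 ± 0.05 and the ranges, 126 to 728 FPKM and 948 to 1455 FPKM, did not overlap. Psmb9 ranged from 0.576 to 2.52 FPKM in IL6-iHPCs and from 3.04 to 14.8 FPKM in IL6-iMHs.

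Irf7 ranged from 4.92 to 10.8 FPKM in IL6-iMHs with a median of 7.40, above every passaged sample and below every hepatocyte sample. Isg15 ranged from 2.59 to 10.7 FPKM with a median of 6.21, and it too lay between the other classes. Without clone-1 the IL6-iMH medians were 7.38 FPKM for Irf7 and 4.98 FPKM for Isg15, with the same order of classes. Against Hepatocytes, 19 members stayed lower in IL6-iMHs and 2 were higher, Ifit2 and Oas3 (all genes 7.79% and 24.8%). Oas3 (log2 1.06) lost its call under median ratio scaling (0.90) and quantile normalization (0.54). Without clone-1 the counts were 20 lower and 2 higher (all genes 7.28% and 22%). Neither Zbp1 nor Rtp4 was called on maturation (log2 0.18 and -0.05, limma), but Zbp1, close to 0 in IL6-iHPCs, came to 0.90 at a pseudocount of 0.1 and to 1.88 by voom, which called it. They were 3.81 and 3.18 below Hepatocytes on the log2 scale.

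A few effectors were higher in the IL6-iMHs labelled clone-1 than in the other IL6-iMHs, while other members were lower there. Oasl1 (chr5:114923143-114937911) was at 30.6, 32.6 and 35.1 FPKM there and between 3.51 and 6.73 FPKM in the other IL6-iMHs. Ifit1 was at 5.78, 5.41 and 6.49 FPKM there and between 0.403 and 0.921 FPKM in the others. Rsad2, the enzyme viperin, was at 3.17, 3.55 and 2.69 FPKM there and between 0.0397 and 0.297 FPKM in the others. These 3 genes did not overlap between clone-1 and the other IL6-iMHs, and the share of all genes that did not was not counted. B2m, H2-K1 and Oas1a went the other way, with clone-1 means of 655, 316 and 0.845 FPKM. Their lowest values in the other IL6-iMHs were 948, 497 and 1.31 FPKM. The clone-1 libraries are the ones whose Y-linked genes did not match their IL6-iHPCs. The chemokine Cxcl10, no member, was at 6.12, 7.03 and 5.40 FPKM in the same samples.

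The ligands and receptors of the pathway were measured beside them. Of 12 listed interferon ligands, 7 had rows in the cell table and none passed the filter, the highest value being 0.349 FPKM (Ifnk). Ifnb1 was listed at 0 in every cell sample. Ifng, made by lymphocytes, was at 0.341, 0.181 and 0.147 FPKM in Hepatocytes and at 0 in all cultured samples. Of 6 receptors, 5 were higher in IL6-iHPCs-D3 and 0 lower, with a median log2 change of 1.71 against 1.14 for all genes (53.9% and 12.1% of all genes were higher and lower), and Ifngr1, a chain of the type II receptor, among them. Ifngr1 was at 4.34, 4.68 and 4.20 FPKM in Hepatocytes and at 42.7, 45.5 and 41.2 FPKM at day 3 (log2 3.03 ± 0.06). Of 12 tested signal transduction genes 8 were higher and 1 lower at day 3, near the share of all genes (53.9% and 12.1%), with Jak2 up by 3.47 and the phosphatase Ptpn2, which acts against Jak kinases, up by 3.28. Changes of receptors, signal transduction genes and the wider lists are given without either scaling, under which rises of members at day 3 became smaller.

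A wider list of 44 other interferon-stimulated genes went both ways at day 3, with 11 higher and 9 lower of 34 tested (all genes 53.9% and 12.1%) and a median log2 change of -0.03. Slfn2 was at 1.45, 1.36 and 1.61 FPKM in Hepatocytes and at 57.3, 75.0 and 55.3 FPKM at day 3. Ifitm3, which blocks virus entry, went from 924, 883 and 721 FPKM to 43.3, 43.3 and 42.0 FPKM. The log2 changes were 4.67 ± 0.10 and -4.26 ± 0.11, without overlap. Of 14 other class I genes 3 were higher and 3 lower at day 3 (all genes 53.9% and 12.1%), and H2-T23, a non-classical class I gene, fell by 3.44. On maturation 3 of the 34 other interferon-stimulated genes were higher and 5 lower (all genes 6.68% and 21.4%). Tgtp1, an interferon-induced GTPase, rose by 3.63 in the mean of the lines, and Ifi204, a DNA sensor, fell by 2.10.

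The liver samples ask what the same genes did while tissue regrew. They are whole tissue, in which fewer cells of a type and less RNA per cell cannot be told apart. At 6 h after PHX, 16 of the 35 members were lower than in Normal liver and 0 higher (11.5% and 4.78% of 11114 genes). At an unadjusted p under 0.05 (limma) 30 were lower and 0 higher, and voom called 25 lower and 0 higher. The median log2 change was -0.93 for the members and -0.28 for all genes. All 3 samples lay below all Normal liver samples for 29 members and above for 0 (all genes 48.6% and 16%). Without PHX-6h replicate 3, 18 members were lower. Under median ratio scaling 12 members were lower, without Irf9, Stat2, Ifi35 and Xaf1.

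Members of every role but the guanylate-binding proteins were among the 16. Oasl1 was at 9.82, 9.61 and 13.6 FPKM in Normal liver and at 2.45, 1.91 and 1.37 FPKM at 6 h. Tap1 was at 9.92, 8.43 and 13.0 FPKM and then at 1.54, 2.06 and 2.79 FPKM. Usp18 was at 10.8, 12.2 and 14.3 FPKM and then at 2.19, 2.77 and 3.18 FPKM. None overlapped, with log2 changes of -2.05 ± 0.27, -1.87 ± 0.21 and -1.86 ± 0.43 (adjusted p = 2.86e-05, 7.66e-06 and 0.00228, limma). Ifit1 was at 6.35, 7.80 and 7.40 FPKM and then at 1.03, 1.19 and 1.54 FPKM (-1.86), and Irf1 at 14.0, 17.2 and 13.9 FPKM and then at 2.72, 5.16 and 3.15 FPKM (-1.81). Neither class I heavy chain was called, with H2-D1 at 357, 366 and 436 FPKM in Normal liver and at 532, 491 and 403 FPKM at 6 h (log2 0.30, adjusted p = 0.144, limma). The summed Kupffer cell and macrophage markers were 266 to 407 FPKM in Normal liver and 102 to 199 FPKM at 6 h, with 9 of 11 markers lower and none at 0 throughout, and the leukocyte sum went from 3.51 to 6.05 FPKM to 2.14 to 3.09 FPKM. Their part in the result was not tested.

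At 24 h and at 3 days, 10 members each were lower and 0 higher (all genes 4.16% and 3.74% at 24 h, 2.49% and 3.33% at 3 days). At an unadjusted p under 0.05 (limma) 24 were lower and 0 higher at each time, and voom called 15 and 16 lower and 0 higher. At 24 h the median log2 change was -0.73 against -0.02 for all genes. Irf7 was at 29.8, 42.1 and 41.8 FPKM in Normal liver, at 12.1, 10.7 and 11.2 FPKM at 24 h and at 13.7, 6.41 and 11.8 FPKM at 3 days. It lay below Normal liver in all 6 samples, with log2 changes of -1.65 ± 0.24 and -1.79 ± 0.24. Without PHX-24h replicate 1, 12 members were lower at 24 h (all genes 5.91%), and leaving out PHX-24h replicate 2, replicate 3 or Normal liver replicate 3 left 5, 6 and 6.

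PHX-D3 replicate 2 was low in many members. It held Bst2 at 16.2 FPKM where its mates had 179.9 and 174 FPKM, and Usp18 at 0.882 FPKM where they had 4.54 and 7.00 FPKM. It held Rsad2 at 6.83 FPKM, above their 1.57 and 1.64 FPKM. Without this sample, 5 members were lower at 3 days and 0 higher (all genes 1.3% and 2.86%), namely Irf7, Isg15, Usp18, Ifit1 and Ifit3.

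At 7 days the order turned. Of the 35 members, 20 were higher than in Normal liver and 0 lower (all genes 7.81% and 1.03%). At an unadjusted p under 0.05 (limma) 25 were higher and 1 lower, and voom called 21 higher and 0 lower. The median log2 change was 1.22 for the members and 0.13 for all genes. All 3 samples lay above all Normal liver samples for 29 members (all genes 39%), and Stat2 alone lay below. Median ratio scaling gave 18 higher, all among the 20, and quantile normalization also gave 18, of which 16 were among the 20. Ifit2, Ifit3, Oas3 and Rsad2 lost their calls under the latter, and B2m and H2-K1 gained theirs.

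**Figure D4:**
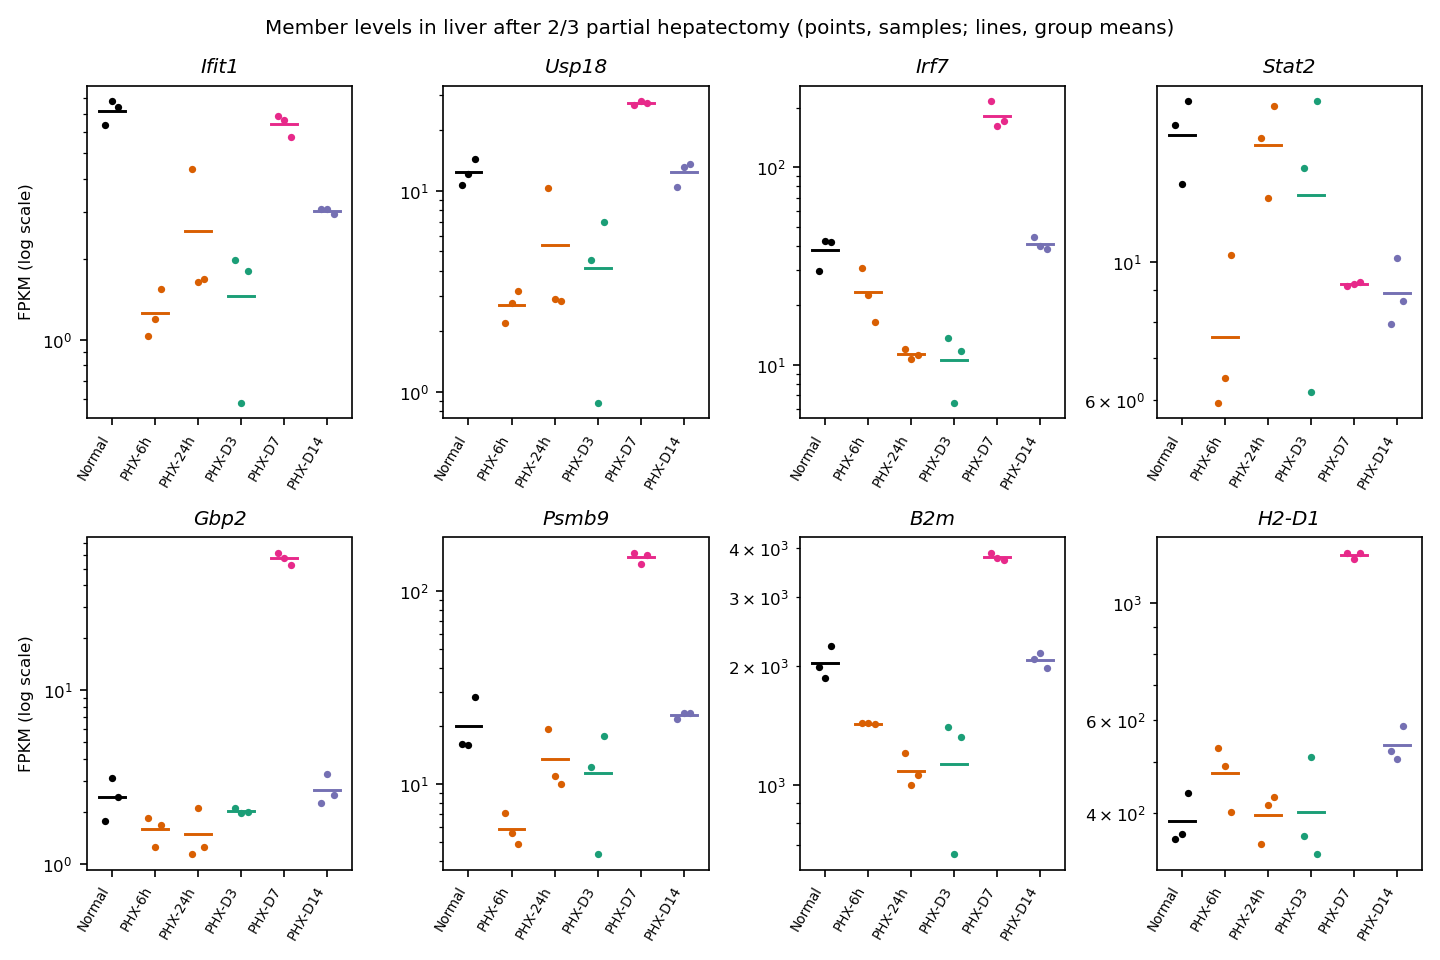
FPKM on a log axis for 8 members in Normal liver and at 5 times after PHX, with a point for each of the 3 samples and a line at the group mean. Gbp2, Psmb9, Irf7, B2m and H2-D1 stand highest at day 7, whereas Ifit1 at day 7 (5.74 to 6.84 FPKM) overlaps Normal liver (6.35 to 7.80 FPKM) and Stat2 lies below it.

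The guanylate-binding proteins all rose, and Gbp2 and Gbp3 had the largest log2 changes of the 35 members. Under quantile normalization Psmb9 (2.766) came just above Gbp3 (2.757). Gbp2 was at 1.78, 3.11 and 2.43 FPKM in Normal liver, at 2.10, 1.97 and 1.98 FPKM at 3 days and at 61.9, 57.7 and 52.2 FPKM at 7 days. Gbp3 was at 3.31, 4.60 and 3.97 FPKM in Normal liver and at 42.2, 37.6 and 32.98 FPKM at 7 days. Gbp7 went from 2.34, 2.59 and 2.71 FPKM to 14.9, 13.1 and 10.3 FPKM. All 3 were without overlap, with log2 changes of 4.10 ± 0.17, 2.96 ± 0.22 and 1.94 ± 0.18 (adjusted p = 1.9e-10, 1.08e-07 and 1.27e-06, limma).

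Antigen processing rose beside them. Psmb9 was at 16.2, 15.9 and 28.2 FPKM in Normal liver and at 158, 138 and 153 FPKM at 7 days. Psmb8 was at 23.7, 26.5 and 39.8 FPKM and then at 163, 149.8 and 159.6 FPKM. Tap1 was at 9.92, 8.43 and 13.0 FPKM and then at 56.2, 57.7 and 55.2 FPKM. None overlapped, with log2 changes of 2.88 ± 0.35, 2.39 ± 0.24 and 2.34 ± 0.21. H2-D1 rose by 1.68 ± 0.16, to 1245, 1213 and 1247 FPKM, while B2m, at 3892, 3765 and 3732 FPKM against 1991, 1867 and 2249.7 FPKM, stayed under 2-fold (log2 0.90), as did H2-K1 (0.75), although both were called under quantile normalization (B2m 1.39, H2-K1 1.015). None of the 3 constitutive proteasome counterparts was called (limma).

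Among the effectors 10 of 16 rose (7.81% of all genes), of which Ifit3 and Rsad2 lost their calls under both scalings and Ifit2 and Oas3 under quantile normalization. Oasl2, at 2.63, 2.15 and 1.94 FPKM in Normal liver, reached 17.9, 16.9 and 16.5 FPKM (log2 2.49 ± 0.17). Oas1a, which makes the activator of RNase L, went from 3.61, 3.62 and 2.62 FPKM to 17.7, 15.2 and 16.9 FPKM (2.05 ± 0.26). Both were without overlap. Ifit1 was at 6.84, 6.65 and 5.74 FPKM, within the spread of Normal liver (log2 -0.14 ± 0.25), although Ifit2 and Ifit3 rose by 1.22 and 1.12. Zbp1 went from 7.27, 10.8 and 13.4 FPKM to 82.5, 71.9 and 75.4 FPKM (2.79 ± 0.36), while the RNA sensors Ddx58, Ifih1 and Dhx58 gave no call (log2 0.50, 0.18 and 0.17).

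Of the transcription factors, Irf7 rose to 216, 161 and 171 FPKM (log2 2.24 ± 0.24). Stat2 was at 9.13, 9.21 and 9.26 FPKM against 16.6, 13.3 and 18.1 FPKM (log2 -0.73, adjusted p = 0.059, limma), and Irf9 differed little (0.17). Irf1 was not called (log2 0.945, and 0.778 and 0.762 under both scalings). Of 43 other interferon-stimulated genes, 24 rose and 0 fell (all genes 7.81% and 1.03%, limma). Tgtp1 led them, at 1.91, 2.00 and 3.63 FPKM in Normal liver and 139, 161 and 156 FPKM at 7 days (5.48 ± 0.31). Ifng was at 0, 0 and 0.0286 FPKM in Normal liver and at 0.376, 1.197 and 0.823 FPKM at 7 days, under the filter. Its part in the result was not tested.

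**Figure D5:**
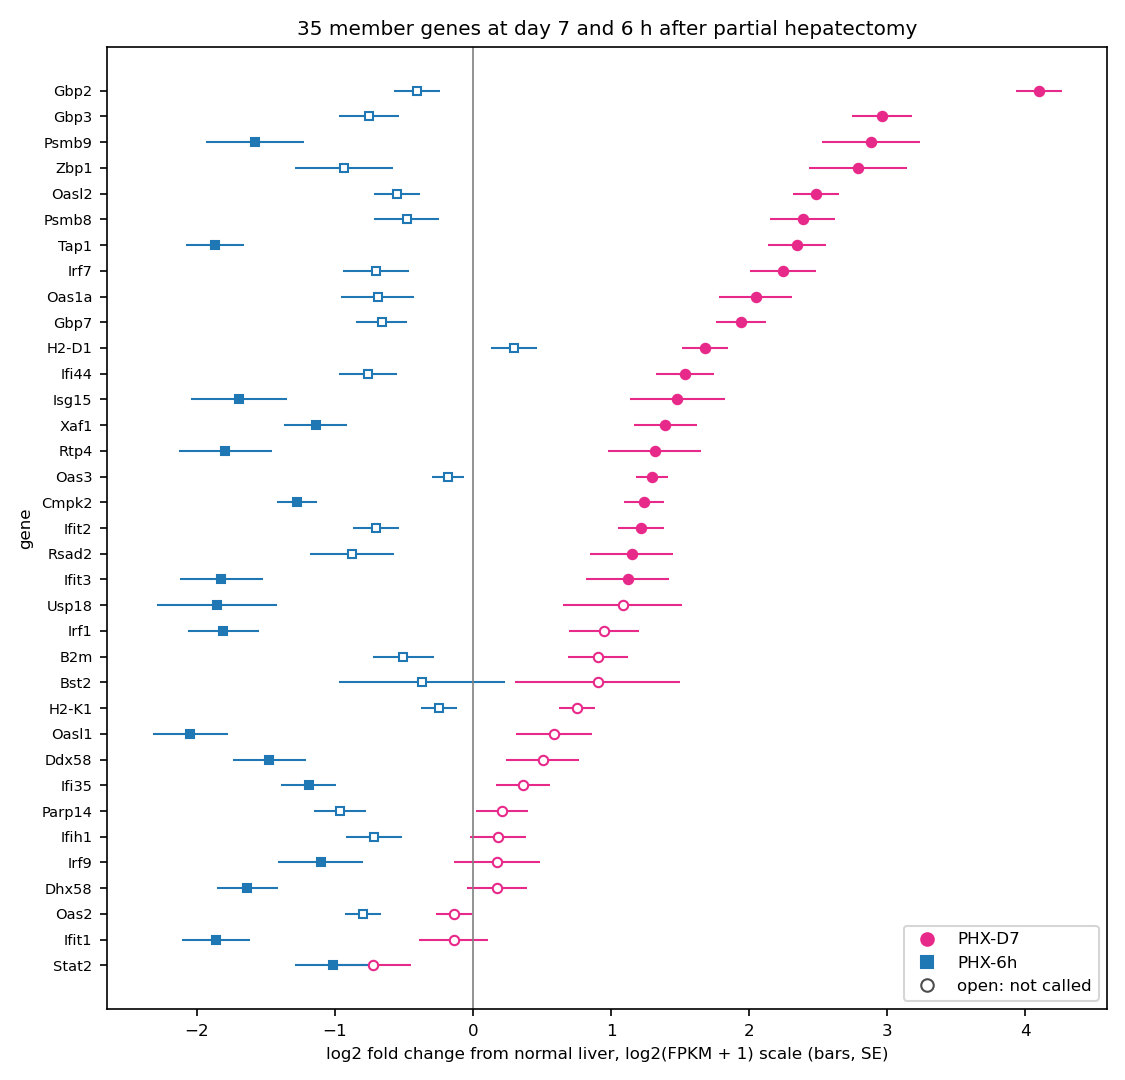
Log2 fold change from Normal liver on the log2(FPKM + 1) scale, with SE bars, for the 35 members at day 7 (circles) and 6 h (squares), sorted by day 7, filled where called and open where not. At day 7, 20 members are filled to the right of 0, with Gbp2 at 4.10, and at 6 h 16 are filled to the left; under median ratio scaling the counts were 18 and 12. Both comparisons share the Normal liver samples.

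RNA of other cells moved with these genes at 7 days. Kupffer cell and macrophage markers summed to 1466 to 2126 FPKM, with all 11 markers higher, against 266 to 407 FPKM in Normal liver. Leukocyte markers summed to 54.5 to 55.3 FPKM against 3.51 to 6.05 FPKM, with none of the 12 at 0 throughout, and Gzma, a granule protease of killer lymphocytes, was at 26.8, 25.3 and 30.3 FPKM against 0.764, 1.205 and 0.748 FPKM. Hepatocyte markers summed to 37149 to 43385 FPKM against 50475 to 55143 FPKM, and none of the 5 tested was called. The part of these cells in the result was not tested.

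By 14 days 1 member, Ifit1, was lower and 0 were higher than in Normal liver (all genes 2% and 0.981%), with a median log2 change of -0.05. At an unadjusted p under 0.05 (limma) 12 were lower and 1 higher, and voom called 3 lower and 0 higher. Ifit1 was at 3.08, 3.07 and 2.95 FPKM, below all Normal liver samples (log2 -1.02 ± 0.25, adjusted p = 0.0109, limma), a call lost under either scaling and without Normal liver replicate 2 or 3. Against day 7, 21 members were lower at day 14 and 0 higher (all genes 7.35% and 0.441%), with 31 and 0 at an unadjusted p under 0.05 (limma) and 25 and 0 by voom. From 3 to 7 days, 30 were higher and 0 lower (all genes 7.15% and 1.31%), with 34 and 0 at an unadjusted p under 0.05 (limma) and 31 and 0 by voom. Without PHX-D3 replicate 2 the count was 28 higher and 0 lower (all genes 7.74% and 1.57%). The summed members came to 3761 to 4476 FPKM in Normal liver, 8248 to 8418 FPKM at 7 days and 4253.5 to 4400.3 FPKM at 14 days.

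The ISRE core occurred among members that were higher and members that were lower, and of all members with a window 14 of 29 (48.3%) held it. Among called members with a window, 4 of 5 that were higher in IL6-iHPCs-D3 held the ISRE core and 5 of 12 that were lower. Under either scaling only 2 of those 5 kept the call and 1 of these held the core, against 8 of 19 lower members under median ratio scaling and 8 of 17 under quantile normalization. At 6 h after PHX 5 of 13 lower members held it (4 of 9 under either scaling), and at 7 days 8 of 18 higher ones (6 of 16 under either). On maturation 5 of 10 higher members held it, and 1 of 1 lower. Isg15 and Bst2, whose matches are printed above, were lower in culture, and Stat2, with a match of its own, was higher at day 3.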

How the data were processed

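RNA was sequenced from 33 cell samples and 18 liver samples, of 60 in the series. The authors aligned reads with TopHat (1.4.1) to mm10 and made values with Cufflinks (1.3.0), per the submitters' processing notes, and the deposited tables hold FPKM per gene symbol, read here as FPKM from these tools and the values. The source does not state strand-specific libraries, so overlapping and antisense genes cannot be told apart. FPKM values are shares of a library, so a change in a few abundant RNAs shifts all others.

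Rows that repeated a symbol (2 per table) were averaged. Genes reaching 1 FPKM in at least 3 samples were kept. log2(FPKM + 1) was fitted with limma (3.58.1, R 4.3.3) over all groups of a table, which share 1 estimate of the spread. The p-values were adjusted by Benjamini-Hochberg across every gene kept in the table, and a call needed an adjusted p under 0.05 and at least 2-fold. Fold changes on this scale understate changes of low genes. Tables were fitted separately. Low values were whole multiples of 1 read for 99.95% of genes (cells) and 99.73% (livers), which gave relative depths, known up to a common factor, and reads for voom. Whether a unit is a read or a pair was not established. By rule, the members to be given in every sample were, per role group and main comparison, the 2 called members that rose most and the 2 that fell most, and the most abundant member of the group. Some members that it names have no such values in the text, among them Isg15 at 7 days after PHX and Dhx58 and Bst2 on maturation. Other genes given in every sample, H2-D1 and Rsad2 among them, were chosen after their values were seen. From the other lists the 2 called genes with the largest change each way could be named, and Nlrc5 always. A further gene that the rule names is not reported here. Members and gene lists were chosen with earlier results of these data known. On simulated data the cell fit recovered 100 of 100 genes changed by 1.5 on the log2 scale between IL6-iHPCs-D3 and Hepatocytes (12328 genes, 0 wrong calls), and the liver fit 95 of 100 between 6 h and Normal liver (11114 genes, 5 wrong calls). No 2 replicates of a group were identical, and replicate pairs differed by more than sampling noise. Alternatives were a pseudocount of 0.1, no filter, median ratio scaling, quantile normalization, a replicate block, voom, no fold limit and each replicate left out. A further table of transcription factors at day 7 holds none of the members and was not used here. Sequences came from RefSeq, GRCm38.p6.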

Additional observations from a re-analysis of the deposited data

Results flagged for a closer look

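The change on maturation differed between the 4 lines for 31 of the 32 members tested (F test of the interaction of line and maturation in limma, adjusted p under 0.05), Xaf1 being the other. The share of all 12328 genes was 96.3%, so the members did not stand out. For 19 of the members, against 65.2% of all genes, the lines were also at least 2-fold apart. Without the clone-1 libraries the counts were 25 members against 91.6% of all genes, and 12 against 50% also 2-fold apart. The samples of a line are technical repeats, so the test sets differences between single cultures against technical spread. Stat2 changed by -0.29 in mouse-1 (P10), by -2.62 in mouse-2 (P10), by 0.15 in clone-1 (P20) and by -1.75 in mouse-1 (P35) on the log2 scale. Bst2 changed by 1.74, 2.68, -0.13 and 1.56 in the same order, and Ifit1 by 0.35, 0.47, 2.72 and 0.60. The part of donor, clone and passage was not tested.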

How the results depend on the processing

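Under median ratio scaling and quantile normalization, members higher than in Hepatocytes numbered 3 and 2 at day 3, 1 and 0 at day 14, 0 and 0 in the passaged lines and 1 and 1 in IL6-iMHs, and members lower in IL6-iMHs than in IL6-iHPCs 0 and 0. Median ratio scaling also gave 23 lower at day 3 and 2 lower from day 3 to day 14, and both scalings gave 0 lower at 14 days after PHX. Among called members, directions turned for Ifih1 (-0.0923) and B2m (0.3527) at day 3 and Gbp2 (-0.0481) at day 14 under quantile normalization, and for Stat2 at day 14 (-0.10) and in the passaged lines (-0.17) under median ratio scaling. Of members not called against Hepatocytes, 3 turned under either scaling at day 3 (Ddx58, Irf1 and Tap1), 4 at day 14 (Ddx58, Ifih1, Irf1 and Oas3), 4 and 6 in the passaged lines and 1 in IL6-iMHs (Gbp2, -0.15 and -0.49). The median of all genes moved from 1.14 to 0.06 at day 3 and from -0.28 to 0.01 at 6 h under median ratio scaling, where 25.8% of all genes were higher and 28.5% lower at day 3. A pseudocount of 0.1 gave 10 lower from day 3 to day 14, 4 higher in the passaged lines, 4 lower on maturation and 3 lower at 14 days. Voom gave 1 higher and 10 lower from day 3 to day 14, 4 higher in the passaged lines, 5 lower on maturation, 25 lower at 6 h, 16 at 3 days and 3 at 14 days. With no fold limit there were 8 higher at day 14, 1 higher and 25 lower from day 3 to day 14, 6 higher in the passaged lines, 23 higher and 8 lower on maturation, and 28, 20, 23 and 5 lower at 6 h, 24 h, 3 days and 14 days. The cause was not tested.

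Leaving out each replicate in turn gave 5 to 12 lower at 24 h, 5 to 15 at 3 days and 0 to 1 at 14 days after PHX. The ranges were 14 to 18 lower at 6 h, 19 to 21 higher at 7 days, 3 to 5 lower from day 3 to day 14, 14 to 16 lower at day 3, 19 to 20 lower at day 14, 18 to 19 lower in IL6-iMHs against Hepatocytes and 2 to 3 higher in the passaged lines. The replicate numbers do not pair the samples (same-numbered deviations correlated with a median r of -0.016 over 165 cell pairs and -0.055 over 45 liver pairs), and with the replicate block the counts at day 3 were 6 higher and 15 lower and all 165 calls of members kept direction and threshold. Without clone-1, chosen after seeing the data, 57 of 59 such calls held. Oas2, Oasl2 and Ifi44 stayed under the filter in cells. The day 7 cell comparison was not run.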
